A study of Homo sapiens with 12 samples.

Results

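Ubiquitin-conjugating enzyme genes were taken as all genes whose symbol is UBE2, a letter and at most a single digit. The rule found 32 genes among the 41371 gene names of the series. All 32 were in the mRNA profiles, and 25 of them had a called eIF3 crosslinking cluster in at least 1 library, out of 6036 genes with a cluster. The rule used no measured value. UBE2S is compared below with the other 31 genes.

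The libraries came from Jurkat cells, a human T cell leukaemia line, either activated with the phorbol ester PMA plus the calcium ionophore ionomycin (PMA + I) over 5 hr or left non-activated. Both states received 50 μM 4-thiouridine for PAR-CLIP, added 7 hr before the activation, and both were crosslinked at 365 nm and 0.2 J/cm2. RNA crosslinked to eIF3, the largest translation initiation factor, was recovered with an anti-EIF3B antibody and sequenced from 5 gel bands named after the subunits in them. They are EIF3A/C/B, then EIF3B/C, then EIF3D/L, then EIF3F/E, then EIF3G/E/F. With 2 biological replicates this gives 20 libraries, and the mRNA profiles are the authors' mean TPM (transcript level scaled for length and depth) of 2 replicates per state. The PMA + I treatment bypasses the T cell receptor, and Jurkat is a cycling tumour line, which limits it as a model of a resting T cell.

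Ubiquitin-conjugating enzymes, or E2 enzymes, take ubiquitin from an E1 activating enzyme and, with an E3 ligase, pass it to a substrate. UBE2C starts and UBE2S extends ubiquitin chains on substrates of the anaphase-promoting complex (APC/C), the E3 ligase that drives exit from mitosis. Some members carry ubiquitin-like proteins instead: UBE2M and UBE2F carry NEDD8, which activates cullin-RING ligases, and UBE2L6 carries ISG15.

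Libraries held 83846 to 1163754 uniquely aligned reads. The activated EIF3A/C/B and EIF3B/C libraries were deeper than their non-activated counterparts, with 906588 to 1163754 reads against 83846 to 298205. The non-activated replicate pairs of EIF3A/C/B and of EIF3G/E/F did not differ beyond sampling noise over genes (chi-square p of 0.179 and 0.543), while the other 8 pairs did, so their spread may be technical, and the UBE2S differences of these bands are also given with the pair counted as 1 library. T cell markers summed to 64.6 TPM in activated and 303 in non-activated cells, with all 8 detected. B cell, myeloid, erythroid, epithelial and fibroblast marker lists summed to at most 4.86 TPM each, most of which was CD79A. The activation genes EGR1, DUSP2, NR4A1, CD69 and IL2 were all higher in the activated profile, by 2.25 to 5.20 on the log2(TPM + 0.1) scale.

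UBE2S lies on the minus strand of chromosome 19 (GRCh38, 55399745 to 55407788). Its MANE Select transcript has 2559 bases, with a 5'-UTR of 199 bases, a coding region of 669 and a 3'-UTR of 1691. PAR-CLIP reads a crosslink as a T-to-C conversion and therefore needs T bases. The UBE2S 5'-UTR held 7.04% T, lower than the median of 17.2% over 19028 MANE Select transcripts, and its coding region held 14.5%.

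Start codon sites were found for 7 of the 25 members with a cluster, and UBE2S was among those without one. In activated EIF3A/C/B they were 7 of 69 and 7 of 75 sites of the other members. Over all genes of these libraries they were 1050 of 11726 and 1031 of 11824. UBE2C, UBE2F, UBE2G2, UBE2K, UBE2L6, UBE2N and UBE2Q1 each had a site annotated to the start codon in at least 2 libraries, whereas UBE2S had none in any of its 20. The 30 bases around each start codon, 15 before its A and 15 from it, are shown to place those sites, since the deposited lists give a site's region but not its coordinates. They are spliced transcript sequence from GENCODE 44 on GRCh38, 5' to 3', with the start codon in capitals.
UBE2S: cggccggccgcagccATGaactccaacgtg
UBE2C: gccaacgccgcccggATGgcttcccaaaac
UBE2N: tcgggttctgacaagATGgccgggctgccc
UBE2K: gctgcgggcggagacATGgccaacatcgcg
UBE2F: gtaaaggcagcagtaATGctaacgctagca
UBE2L6: acactcggtcccgacATGatggcgagcatg
UBE2G2: agctgttgcggggccATGgcggggaccgcg
UBE2Q1: ggagcggagcggaggATGcagcagccgcag
UBE2C, on chromosome 20 with its start codon at 45812696 to 45812698, had the start codon site in all 8 of the libraries that listed it. UBE2N, which builds signalling chains with the inactive variants UBE2V1 or UBE2V2, had it in all 7 of its libraries (chromosome 12, 93441882 to 93441884). UBE2F had it in all 4 of its libraries, while UBE2K had it in 2 of 10. The UBE2S and UBE2C windows held 3 T bases each, and 88.7% of 18306 MANE Select windows of this length held at least as many. UBE2Q1, with a single T in its window, had fewer T bases there than the 2 conversion positions a called cluster needed. No difference in T content was tested.

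UBE2S had a called cluster in all 20 libraries, a property it shared with 10 other genes of the series and with no other member. UBE2D2, UBE2K and UBE2R2 had a cluster in 10 each. The plot of members by library shows that the other members filled the activated EIF3A/C/B and EIF3B/C libraries and thinned out in the rest. In activated EIF3A/C/B the lists held 21 and 23 members, against 3 in each non-activated replicate. In EIF3B/C they held 16 and 17 against 8 and 10, in EIF3D/L 12 and 10 against 1 and 1, and in EIF3F/E 4 and 6 against 1 and 2. The lists of all genes thinned out as well. They held 4916 and 4890 genes in activated against 165 and 157 in non-activated EIF3A/C/B, and 3516 and 3454 against 699 and 1133 in EIF3B/C. In EIF3D/L they held 821 and 1059 against 126 and 117, and in EIF3F/E 276 and 266 against 156 and 185. In EIF3G/E/F UBE2S was the only member listed in any of the 4 libraries. UBE2B, UBE2D4, UBE2E2, UBE2J1, UBE2Q2, UBE2T and UBE2V1 had no called cluster in any library. A gene that is not listed has no cluster of at least 7 reads with 2 conversion positions, which is not the same as 0 reads.

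**Figure D1:**
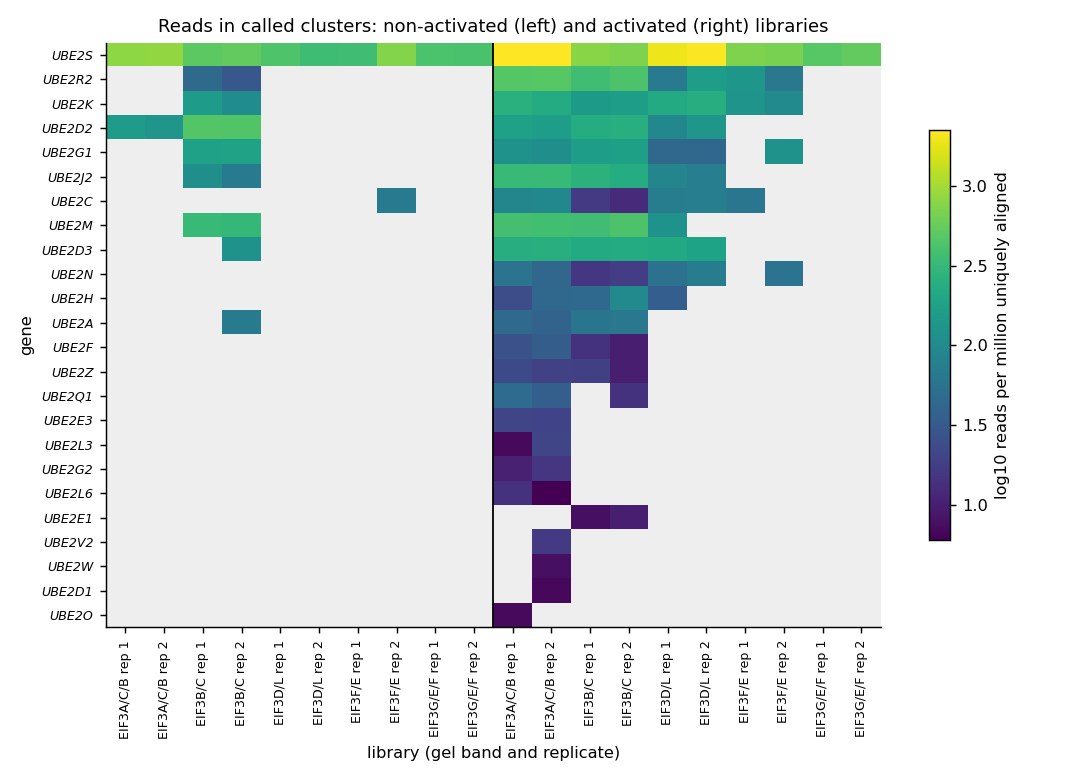
Reads in called clusters of 24 members with a cluster (rows) in each of 20 libraries (columns, non-activated left of the line and activated right), as log10 RPM, reads per 1000000 uniquely aligned reads; grey marks a gene with no called cluster. UBE2S fills all 20 columns, and UBE2D2, UBE2K and UBE2R2 fill 10 each.

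In EIF3A/C/B, UBE2S had 2579 and 2564 reads in the activated replicates 1 and 2, against 70 and 72 without activation. It had 720 and 641 against 97 and 161 in EIF3B/C, and 389 and 542 against 83 and 64 in EIF3D/L. In the remaining bands it had 105 and 95 against 40 and 87 (EIF3F/E), and 65 and 71 against 43 and 38 (EIF3G/E/F). Because the libraries differ in depth, these counts were scaled to reads per 1000000 uniquely aligned reads (RPM).

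On that scale UBE2S stood at 2225 RPM ± 30.6 (SD, n = 2) in activated EIF3A/C/B and 844 in the non-activated pair. In EIF3B/C it stood at 747 ± 56.3 against 523 ± 23.8, and in EIF3D/L at 2056 ± 161 against 400.4 ± 59.0 (SD, n = 2 each). The groups did not overlap in any of these 3 bands. In EIF3F/E the values of 718 and 688 in activated cells fell inside the range of the non-activated ones, 362 and 743. In EIF3G/E/F the activated libraries, at 486 and 543, were both above the non-activated ones, at 420 and 414. Within each state the level was lowest in EIF3G/E/F among activated bands, and in EIF3D/L among non-activated bands, where its replicates (442 and 359) enclosed those of EIF3G/E/F. Activated EIF3A/C/B and EIF3D/L were the neighbours at the top, and 1 EIF3D/L library (2170) came close to the EIF3A/C/B pair (2246 and 2203).

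**Figure D2:**
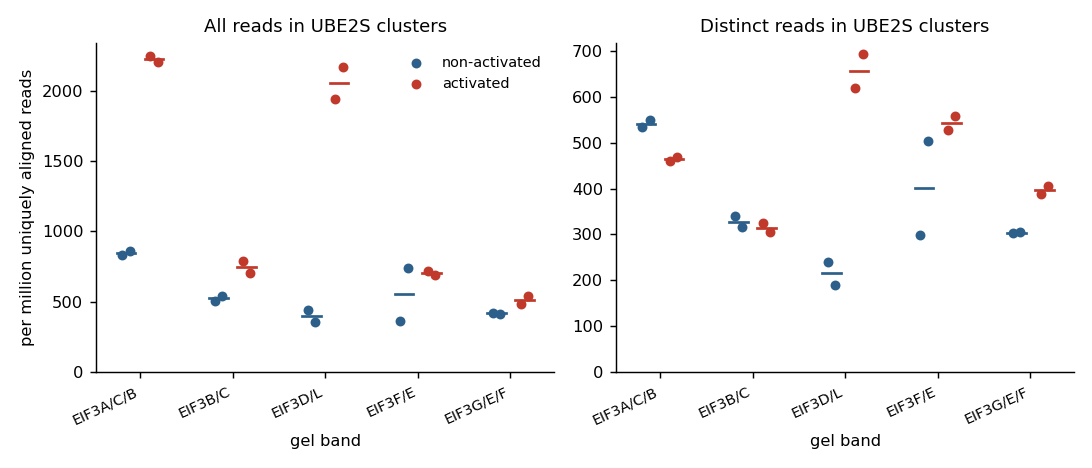
UBE2S in 5 gel bands (x axis) as cluster reads per 1000000 uniquely aligned reads (y axis), counting all reads (left) or distinct reads, that is, reads collapsed to single copies (right). Points are the 2 replicates and lines their means; with all reads, activated EIF3A/C/B and EIF3D/L stand highest (means of 2225 and 2056), while with distinct reads both activated EIF3A/C/B libraries lie below both non-activated ones.

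The first question of the design was whether crosslinking to eIF3 differed between activated and non-activated cells. By edgeR's quasi-likelihood test over all genes reaching 20 reads in some library of the band, UBE2S was higher in activated cells in 3 bands. The log2 difference was 1.40 (SE 0.051, adjusted p = 0.00184) in EIF3A/C/B, 0.51 (SE 0.12, adjusted p = 0.0366) in EIF3B/C and 2.36 (SE 0.34, adjusted p = 0.00116) in EIF3D/L. The counting error alone gives a wider 95% interval than that first SE, from 1.16 to 1.65 (exact binomial). In EIF3F/E (0.35, SE 0.46, adjusted p = 0.643) and EIF3G/E/F (0.30, SE 0.24, adjusted p = 0.442) the test was not passed. With the non-activated pair counted as 1 library the difference stayed at 1.40 in EIF3A/C/B, where 16 members were called higher as before, and at 0.30 (adjusted p = 0.387) in EIF3G/E/F. Among genes listed in all 4 libraries of a band, 42.9% of 112 were called higher in EIF3A/C/B, 17.7% of 566 in EIF3B/C and 77.3% of 75 in EIF3D/L. The UBE2S difference was matched or exceeded by 16.96%, 36.0% and 32% of these genes, whose median differences were 0.48, 0.17 and 1.91. An exact permutation test of 2 against 2 libraries cannot go below p = 0.333, so these calls rest on the spread that edgeR shares between genes, and none held when either activated library was left out.

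Both the choice of reads and the choice of depth changed these UBE2S values. Counting distinct reads, UBE2S in EIF3A/C/B had 527 and 545 after activation against 45 and 46 without it, a log2 difference of -0.22 (adjusted p = 0.18) in the same test. The activated libraries of this band were 13.7 times deeper, and whether distinct reads rise in proportion to depth was not tested. In EIF3B/C distinct reads gave -0.048 (adjusted p = 0.783), and in EIF3D/L they gave 1.61. Scaled to the mRNA reads of each library rather than to all uniquely aligned reads, the difference was 0.89 in EIF3A/C/B, 0.11 (adjusted p = 0.516) in EIF3B/C and 0.39 (adjusted p = 0.257) in EIF3D/L. The mRNA share of the EIF3D/L libraries was 49.2% and 49.3% in activated cells and 12.6% and 12.5% in non-activated cells. It was 48.9% in both activated EIF3A/C/B libraries, and 34.3% and 34.5% in the non-activated ones.

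**Figure D3:**
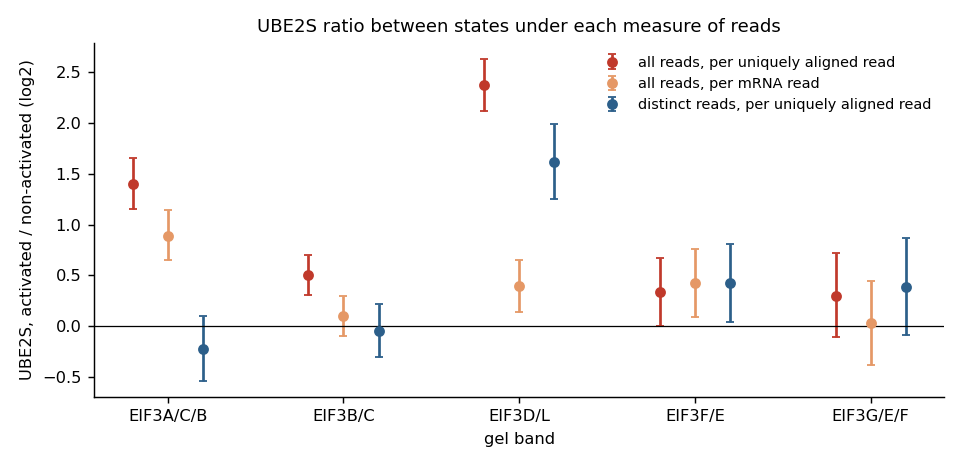
UBE2S ratio of activated to non-activated cells (y axis, log2) in each gel band (x axis), with replicates summed, for all reads per uniquely aligned read, all reads per mRNA read and distinct reads per uniquely aligned read. Bars are exact binomial 95% intervals and cover counting error only; the EIF3A/C/B ratio is 1.40 with all reads and -0.22 with distinct reads.

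Repeated copies of the same read were common for UBE2S in the activated libraries of 3 bands. In activated EIF3A/C/B each distinct UBE2S read was counted 4.89 and 4.70 times in the replicates. Only 1.20% and 1.35% of all listed genes had a ratio as high or higher, and among genes with at least 100 reads the share was 5.13% and 5.64%. The other members had a median of 1.40 there. The ratio for UBE2S came to 1.56 and 1.57 in non-activated EIF3A/C/B, 2.42 and 2.32 in activated EIF3B/C, and 3.14 and 3.13 in activated EIF3D/L. The reads had already been collapsed by their random barcode, and the part of repeated reads in the state difference was not tested. The T-to-C fraction of UBE2S sites, the share of reads with a conversion, in EIF3A/C/B had a median of 88% and 78% with activation and 75% in both replicates without it. For the other members of activated EIF3A/C/B the median was 87%.

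Over all genes tested in EIF3A/C/B, 77.1% were called higher in activated cells (2484 of 3221) and 0.497% lower. Of the 18 members tested, 16 were called higher and none lower, a share close to this background. The tool was edgeR, and 16 members also had an unadjusted p under 0.05, as did 2601 of the 3221 genes. DESeq2 called 5 of the 18 members and 170 of the 3221 genes higher, and whether these shares differ was not tested. The median log2 difference was 7.73 over the members and 7.38 over all genes tested, values that are set by genes with no listed cluster in non-activated cells. In EIF3B/C 40.9% of 2188 genes were called higher and 2.47% lower, and of 11 members 4 were higher and 1 lower. In EIF3D/L 74.5% of 431 genes were called higher and 0.232% lower, and of 7 members 6 were higher and none lower. In EIF3F/E 2.34% of 128 genes were called higher and 1.56% lower, and in EIF3G/E/F 30.9% of 97 and 5.15%. None of the 2 members tested in EIF3F/E and the 1 in EIF3G/E/F was called by edgeR or DESeq2, and none had an unadjusted p under 0.05.

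Of the 24 members with a cluster in activated EIF3A/C/B, 21 had none in either non-activated replicate. At the non-activated depth, proportional scaling would leave 14 of these 21 with under 7 reads per library. Spread evenly over their sites, only UBE2K (13.7 reads per site) and UBE2R2 (7.29) would keep at least 7 reads in a site. No fold change is given for these 21 genes. In EIF3D/L the totals of uniquely aligned reads were closer, and 11 members had no cluster in non-activated cells. On that scale 9 of them would have kept at least 7 reads per site. Among these 9 were UBE2C, UBE2D2, UBE2D3, UBE2G1, UBE2J2, UBE2K, UBE2N and UBE2R2. The mRNA reads of EIF3D/L lay further apart, with 98562 and 123223 in activated against 23727 and 22234 in non-activated cells. No expectation was computed from mRNA reads, and whether these absences follow from depth was not tested. UBE2S itself would have come to 187 reads in non-activated EIF3A/C/B, where it had 70 and 72.

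UBE2D2 was listed in all 4 EIF3A/C/B libraries, as UBE2S was. This enzyme, which works with many E3 ligases, had 203 and 195 against 13 and 11 reads, a difference of 0.27 (SE 0.16, adjusted p = 0.378). It had a single 5'-UTR site in each non-activated replicate. By reads, not divided by length, 2 genes stood above UBE2S in each of these 4 libraries.

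In EIF3B/C, 8 members were listed in all 4 libraries and they moved in both directions. UBE2R2, a chain-building partner of SCF ligases, had 332 and 393 reads in activated against 9 and 9 in non-activated cells, and rose by 3.39 (SE 0.31, adjusted p = 0.0234). UBE2J2, which acts in protein degradation at the endoplasmic reticulum, had 250 and 213 against 22 and 20 reads, and its difference was 1.497 (SE 0.34, adjusted p = 0.0361), a call that was lost with TMM scaling (1.22, adjusted p = 0.0642), with mRNA reads as library sizes (1.09, adjusted p = 0.0767) and with DESeq2 (1.31, adjusted p = 0.356). UBE2R2 kept its call under these 3 alternatives. UBE2D2 had 215 and 224 against 89 and 135 reads. It fell by 0.93 (SE 0.14, adjusted p = 0.0234), the only member called lower between states in any band, with -1.10 by DESeq2 (adjusted p = 0.392) and -1.10 with distinct reads (adjusted p = 0.0111). Its level was 235 and 247 RPM in activated against 464 and 453 in non-activated cells, so the groups did not overlap.

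UBE2M, UBE2K and UBE2G1 did not pass the test in this band. UBE2M had 336 and 391 reads in activated against 62 and 92 in non-activated cells, a log2 difference of 0.34 (SE 0.16, adjusted p = 0.167). UBE2K, which builds degradative chains, had 139 and 151 against 30 and 32 (0.28, adjusted p = 0.469), and UBE2G1, a cullin-RING partner, had 154 and 157 against 34 and 55 (-0.08, adjusted p = 0.732).

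The design also allows the state difference to be compared between bands. The UBE2S difference was larger in EIF3A/C/B than in EIF3B/C by 0.88 on the log2 scale (SE 0.12, adjusted p = 0.0101, edgeR interaction term over 8 libraries). With distinct reads the same term was -0.18 (adjusted p = 1). For UBE2D2 it was 1.20 (SE 0.19, adjusted p = 0.0159), with TMM scaling 0.86 (adjusted p = 0.0755) and with distinct reads 0.71 (adjusted p = 0.331). Over all genes 10.4% of 3422 had a larger difference in EIF3A/C/B and 0.175% a smaller one, and of the 18 members tested 7 were larger and none smaller. Of these 7, UBE2S and UBE2D2 were listed in all 8 libraries. The rest, UBE2G1, UBE2J2, UBE2K, UBE2M and UBE2R2, had no cluster in the non-activated EIF3A/C/B pair and entered there with 0 reads. The count of 7 is therefore not read as an excess of the family.

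Within activated cells, bands of the same replicate come from the same immunoprecipitate. UBE2S was lower in EIF3B/C than in EIF3A/C/B by 1.57 on the log2 scale (difference -1.57, SE 0.065, adjusted p = 0.029, edgeR), and by 0.56 with distinct reads (difference -0.56). UBE2C was the other member called lower there, with 15 and 11 reads against 105 and 110 (difference -2.69, SE 0.23, adjusted p = 0.0335). The background was 7.46% of 3405 genes called lower and 2.53% higher. Of 18 members tested, 2 were lower and none higher. With the replicate as a block, which pairs bands of the same immunoprecipitate, no gene passed (edgeR, UBE2S -1.58, adjusted p = 0.148), and 756 of the 3405 genes then had an unadjusted p under 0.05.

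Between EIF3D/L and EIF3A/C/B the UBE2S difference did not pass the test (-0.11, SE 0.073, adjusted p = 0.268), but UBE2S was higher in EIF3D/L with distinct reads (0.50, adjusted p = 0.0145) and with TMM scaling (0.30, adjusted p = 0.0229). Of all genes, 55.5% of 3229 were lower in EIF3D/L and 1.18% higher, and 9 of 18 members were lower and none higher. Among these 9, UBE2A, UBE2E3, UBE2F, UBE2Q1 and UBE2Z had no called cluster in activated EIF3D/L and entered there with 0 reads. The activated EIF3D/L libraries summed to 450102 uniquely aligned reads, against 2311791 in EIF3A/C/B. DESeq2 called 93 genes and none of the 18 members lower, and 2 members had an unadjusted p under 0.05 by it. UBE2G1 (-1.43), UBE2J2 (-1.96) and UBE2R2 (-1.99) were among those called lower by edgeR and were listed in all 4 libraries, with adjusted p of 0.817, 0.522 and 0.492 by DESeq2. Against EIF3B/C, UBE2S was higher in EIF3D/L by 1.46 (SE 0.10, adjusted p = 0.0208). Of 2180 genes 2.11% were higher and 42.3% lower in EIF3D/L, and of 11 members UBE2S was the 1 called higher and 4 were called lower. With the replicate block UBE2S stood at 1.46 (adjusted p = 0.386). UBE2D2 (-1.08), UBE2G1 (-1.94) and UBE2J2 (-1.62) were among those 4, and the remaining member, UBE2A, had no called cluster in EIF3D/L. The UBE2D2 value came to -0.15 with distinct reads (adjusted p = 0.75), and its call was also lost with TMM scaling, with no filter on low counts and with DESeq2 (adjusted p of 0.0763, 0.0534 and 0.0949).

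UBE2S took 45.1% of the family's cluster reads in both activated EIF3A/C/B libraries. It took 27.1% and 22.7% in activated EIF3B/C, and 61.5% and 64.7% in activated EIF3D/L. These shares count repeated reads. In activated EIF3A/C/B each distinct UBE2S read was counted 4.89 and 4.70 times, beside a median of 1.40 for the other members. No share of distinct reads was computed. To compare genes of different length, reads were divided by the length of the MANE Select transcript. In activated EIF3A/C/B, UBE2S had 1008 and 1002 reads per kb, second of 4501 genes with a cluster and a transcript length. UBE2M followed among the members with 388 and 374, 2.63 times fewer on average, and the other 23 members had a median of 15.1. In activated EIF3B/C the order turned, with a mean of 314 reads per kb on UBE2M and 266 on UBE2S. In EIF3D/L UBE2S had a mean of 182 reads per kb and the next member, UBE2C, had 21.9. These values per kb also count repeated reads. In activated EIF3A/C/B, UBE2S had 527 and 545 distinct reads on 2559 bases, and UBE2M had 259 and 283 on 1159 bases. No order per kb was computed from distinct reads.

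The regions of the sites differed between the states for UBE2S and for other members alike. In all 10 non-activated libraries every UBE2S site was in the 5'-UTR, with 2 sites in 9 of them and 3 in EIF3F/E replicate 2. The 5'-UTR and start codon also held all sites of the other members in non-activated EIF3A/C/B (2 in each replicate), and 90.9% of 11 and 91.3% of 23 in EIF3B/C. Over all genes that share was 64.5% and 72.3% in non-activated EIF3A/C/B, against 46.1% and 45.4% in activated cells. In EIF3B/C it was 66.9% and 66.0% against 42.5% in both activated replicates. In activated EIF3A/C/B UBE2S had 5 sites in each replicate. They were 1 in the 5'-UTR, 2 in coding exons, 1 at the stop codon and 1 in the 3'-UTR in replicate 1, and 2, 1, 1 and 1 in replicate 2. Activated EIF3B/C and EIF3D/L also held UBE2S sites at the stop codon and in the 3'-UTR, in both EIF3B/C replicates for the 3'-UTR but only in replicate 2 of EIF3D/L. In activated EIF3F/E and EIF3G/E/F it again had 2 sites, both in the 5'-UTR. The activated libraries of the first bands were also the deeper ones, and the part of depth in the added sites was not tested. UBE2M, UBE2J2 and UBE2R2 also had only 5'-UTR sites in non-activated EIF3B/C and had 3'-UTR sites in both activated replicates of that band. UBE2S was the only member with a stop codon site.

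Among the other members in activated EIF3A/C/B, the 5'-UTR and start codon together held 52.2% of 69 sites in replicate 1 and 50.7% of 75 in replicate 2. Over all genes of these libraries the share was 46.1% and 45.4%. The single genes differed widely. UBE2D2 had only 5'-UTR sites, 5 and 3 in the replicates. UBE2R2 had most of its sites in the 3'-UTR (3 of 5 and 4 of 6), and UBE2J2 had 12 sites spread over the 5'-UTR, coding exons, 3'-UTR and introns. Reads per site were 514 for UBE2S, 188 for UBE2K and 100.3 for UBE2R2, with a median of 19.8 over the 23 others. These values count repeated reads. In distinct reads, UBE2S had 527 and 545 on 5 sites in each replicate, and UBE2K had 217 on 2 sites and 196 on 1.

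**Figure D4:**
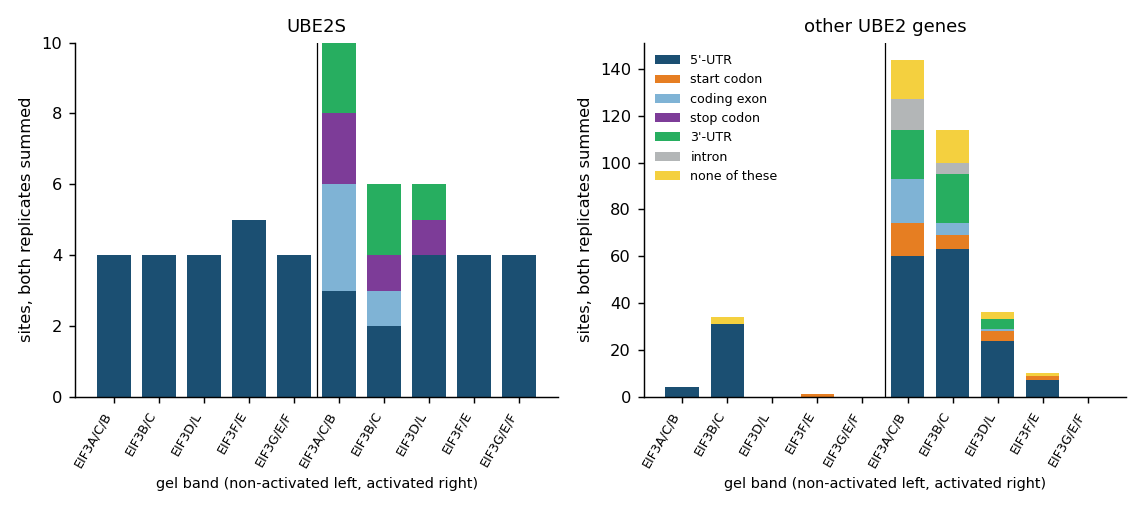
Number of sites by transcript region (colours) for UBE2S (left) and the other members (right), with both replicates summed (y axis), for 5 gel bands (x axis) in non-activated (left of the line) and activated cells. All non-activated UBE2S sites are in the 5'-UTR, and its stop codon and 3'-UTR sites appear in 3 activated bands.

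The read counts of the other members in activated EIF3A/C/B are given here by role. Of the NEDD8 enzymes, UBE2M had 450 and 434 reads and UBE2F had 30 and 40. Of the APC/C enzymes, UBE2C had 105 and 110. UBE2D3, which like UBE2D2 serves many E3 ligases, had 274 and 292, and UBE2R2 had 537 and 566. UBE2J2 had 370 and 376 reads, UBE2K had 294 and 270, and UBE2G1 had 145 and 133. UBE2N had 66 and 50, UBE2A, which acts with RAD18 in DNA damage tolerance, had 54 and 46, and UBE2Q1 had 55 and 42. UBE2H, the partner of the CTLH ligase, had 28 and 51, and UBE2E3 and UBE2Z had 22 to 26. The 8 members below the minimum for naming were UBE2D1, UBE2E1, UBE2G2, UBE2L3, UBE2L6, UBE2O, UBE2V2 and UBE2W, with at most 24 reads in any library.

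In EIF3D/L the second tier was UBE2K with 45 and 60 reads and UBE2D3 with 44 and 47 in activated cells. UBE2R2 had 14 and 42 there, with replicates far apart, and UBE2C had 15 and 19. UBE2D2 had 19 and 33, UBE2J2 18 and 19, UBE2N 11 and 18, and UBE2G1 9 and 11. UBE2M (25) and UBE2H (7) were listed in replicate 1 only. In EIF3F/E UBE2K (19 and 14) and UBE2R2 (20 and 9) were the only other members in both activated replicates. UBE2C (9) was listed in activated replicate 1, UBE2G1 (17) and UBE2N (8) were listed in activated replicate 2, and UBE2C (8) was the only other member in a non-activated library. In EIF3B/C, members not listed in all 4 libraries included UBE2D3 with 205 and 209 reads in activated and 37 in non-activated replicate 2, UBE2A with 55 and 58 against 21 in that replicate, and UBE2H with 42 and 91. UBE2Z, UBE2F, UBE2N, UBE2Q1 and UBE2E1 had 7 to 17 reads in activated EIF3B/C and were not listed in non-activated cells.

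The mRNA profiles gave the level of each message in the 2 states. UBE2S had the highest summed TPM of the family in non-activated cells (53.3) and the second highest in activated cells (6.75, after UBE2D3 with 9.77). UBE2C had 41.3 and 5.96, and UBE2D3 39.7 in non-activated cells. All 32 members were lower in the activated profile, by 1.31 to 2.96 on the log2(TPM + 0.1) scale, with a median of -2.17. This was the level of the whole profile, since 98.5% of the 8504 genes whose mean TPM reached 1 were lower and their median was -2.22. In the activated profile the 10 most abundant transcripts took 88.5% of the TPM, against 73.7% in the non-activated one. Protein-coding transcripts took 1.53% and 9.24%.

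Relative to that median, UBE2S was lower in activated cells by 0.75 on the log2 scale (difference -0.75), the lowest value in the family, and 9.07% of genes were as low or lower. UBE2G1 (-0.68), UBE2M (-0.61) and UBE2J2 (-0.58) followed. UBE2W (0.90) and UBE2D1 (0.88) were highest, both under 2 TPM. In all, 16 members were below the median gene and 16 above it. The profiles have no replicate values, so none of these differences could be tested and their depth is unknown. For the most abundant UBE2S isoform alone the relative difference was -0.31, and with a pseudocount of 1 it was -1.31.

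Per kb of transcript and per TPM in activated EIF3A/C/B, UBE2S had 149 reads, behind UBE2M (269) and UBE2R2 (204) and ahead of UBE2J2 (121). Of 4494 genes, 2.14% were as high or higher, and the median was 7.61. UBE2D3, the most abundant message of the family there, had 7.77. In non-activated EIF3A/C/B, UBE2S had 0.521 and UBE2D2 had 0.311, against a median of 0.166 over 128 genes. These values are not scaled to library depth, so they compare genes within a state and not activated with non-activated cells. They also count repeated reads. In distinct reads of activated EIF3A/C/B, UBE2S had 527 and 545 at 6.75 TPM, and UBE2J2 had 262 and 268 at 1.37 TPM. No order per TPM was computed from distinct reads. Lengths are of the MANE Select transcript, while the UBE2S TPM was spread over 3 protein-coding isoforms, the most abundant of which had 743 bases and 3.30 TPM in activated cells.

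**Figure D5:**
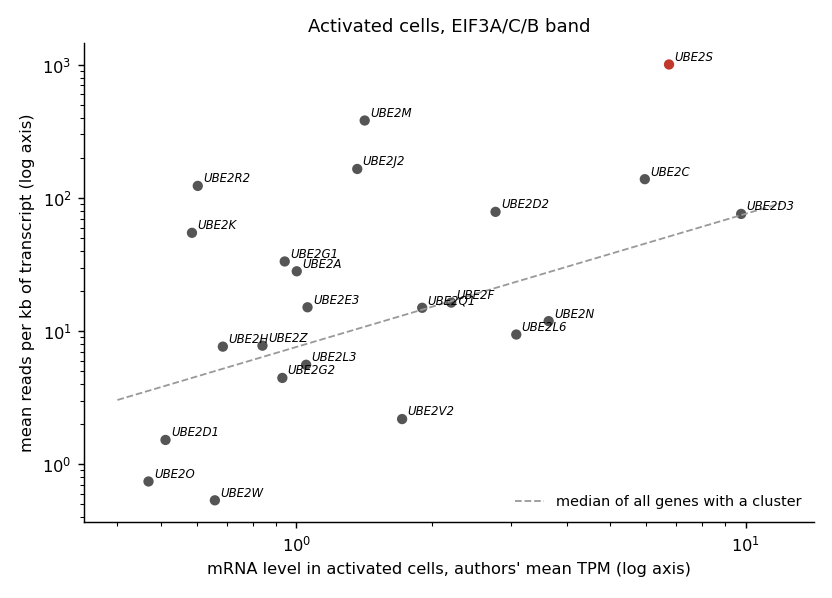
Mean reads per kb of MANE Select transcript in activated EIF3A/C/B (y axis, log scale, n = 2) against the authors' mean TPM in activated cells (x axis, log scale) for 23 members with a cluster. All reads are counted, repeated ones included. The dashed line is the median of all genes with a cluster (7.61 reads per kb per TPM); UBE2S (red) and UBE2M lie far above it, and UBE2D3 lies near it.

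The E1 enzymes, modifiers and ligases that act with these E2 enzymes were described from lists of their genes. Of 16 ubiquitin, ubiquitin-like and E1 genes, 7 were listed in both activated EIF3A/C/B replicates and none in both non-activated ones. Of the 7 tested, 6 were called higher and none lower, with SUMO2 highest at a mean of 92.5 reads. Of 16 APC/C subunits and coactivators, 6 were listed and tested, and all 6 were called higher and none lower. FZR1, the coactivator of late mitosis and G1, led with 89 reads in each replicate, and CDC20 had 44 and 34. Of 13 SCF and cullin-RING genes, 7 were tested and 6 were higher and none lower, led by FBXW7 with a mean of 138.5 reads. CDC34 in this last list is itself an E2 enzyme, which the symbol rule left out of the family. All these shares stand beside the background of 77.1%. No gene of these lists had a called cluster in a non-activated EIF3A/C/B replicate. Each entered there with 0 reads, at 13.7 times lower depth, so a call of lower could not arise.

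Of 16 APC/C substrates and other mitotic genes, 11 were tested in EIF3A/C/B, and 10 were called higher and 1 lower. In this list only CCNB1 and MKI67 had a called cluster in a non-activated EIF3A/C/B replicate, and the other genes entered there with 0 reads. MKI67, a proliferation marker, had 528 and 615 reads in activated cells, and TPX2 and CCNA2 had 289 and 309, and 288 and 288. CCNB1, which encodes cyclin B1, was the 1 called lower, with 115 and 115 reads in activated against 15 and 16 in non-activated cells at 13.7 times lower depth. In the profiles the median log2 difference of this list was -2.55, beside -2.30 for APC/C subunits, -2.58 for the ubiquitin and E1 genes, -2.01 for the SCF and cullin-RING genes and -2.22 for all genes.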

How the data were processed

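The members and gene lists were chosen with earlier results of these data known. The PAR-CLIP counts, deposited by the authors, are whole reads, distinct reads (reads collapsed to single copies) and sites per gene in called clusters. The authors collapsed reads by random barcode, used Bowtie 1.0.0 for alignment (hg38) and obtained clusters per library with PARalyzer in PARpipe (at least 7 reads and 2 conversion positions), annotated with GENCODE 21. The T-to-C fraction of each gene was deposited by the authors as the median over its sites. For each transcript the authors deposited a mean TPM of 2 replicates, from kallisto 0.46.0 after trimming by Cutadapt 2.6. Other deposited numbers are start and stop codon sites and reads per library.

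Reads were compared in R 4.3.3 by the quasi-likelihood test of edgeR 4.0.16 (uniquely aligned reads as library sizes, at least 20 reads in any library, Benjamini-Hochberg adjustment over all genes tested, threshold 0.05). Unlisted genes entered with 0 reads, and fold changes are printed only for genes listed in every library compared. Members with a mean of at least 20 reads in any band and state were named with values, and others by counts. Members under this minimum that are named for a start codon site or an extreme TPM difference were chosen after their values were seen. 1 member is included in the counts over members but is not reported here by name or value, and it is not drawn in the plots of single genes. Same-numbered libraries of the 2 states share only a number and were not treated as pairs. Bands of the same replicate share an immunoprecipitate. TPM was summed over isoforms, and differences used log2(TPM + 0.1) relative to the median gene with a mean TPM of at least 1. DESeq2 1.42.0, TMM, mRNA reads as library sizes, no filter, distinct reads, a replicate block and leaving out each library were alternatives. After seeing the data, 3 were added: genes listed in all 4 libraries, a non-activated pair counted once, and distinct reads for bands and interaction. Intervals are exact binomial (95%) and cover counting error only. MANE Select transcripts came from GENCODE 44, and all 32 members matched. Pseudogene copies of UBE2S could share reads with it. The scripts were tested on simulated data. Python 3.11.15 with pandas 2.3.3, numpy 2.4.6, scipy 1.17.1 and matplotlib 3.10.9 was used.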

Additional observations from a re-analysis of the deposited data

Results flagged for a closer look

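The UBE2S difference between states was larger in EIF3A/C/B than in EIF3B/C by 0.88 on the log2 scale (edgeR interaction term, adjusted p = 0.0101), and it is listed here because the effect differed between bands of the same cells. For UBE2D2 the corresponding term was 1.20 (adjusted p = 0.0159), from 0.27 in EIF3A/C/B against -0.93 for the EIF3B/C band. With distinct reads the terms were -0.18 (adjusted p = 1) and 0.71 (adjusted p = 0.331).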

How the results depend on the processing

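Low depth in non-activated cells and 2 libraries per group limit these results: a member without a cluster there can still have reads, and edgeR's calls needed both activated libraries. Values below are counts of members or UBE2S log2 differences, and the cause of each change was not tested. Over all genes, DESeq2 called 170 of 3221 higher in EIF3A/C/B, 340 of 2188 in EIF3B/C and 205 of 431 in EIF3D/L. It called 15 lower in EIF3B/C, where TMM gave 828 higher and mRNA reads as library sizes 790. Refitted on genes listed in all 4 libraries, 48 of 112 were higher in EIF3A/C/B and 64 of 75 in EIF3D/L. With no filter, 668 of 1266 were higher in EIF3D/L.

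For members called higher in EIF3A/C/B (16), DESeq2 gave 5, genes listed in all 4 libraries gave 2, and leaving out libraries gave 0 to 13 (0 without either activated library). For EIF3B/C (4 higher and 1 lower), TMM, mRNA reads as library sizes and DESeq2 gave 2 higher, and DESeq2 gave 0 lower. Leaving out libraries gave 0 to 7 higher there (0 without either activated library and 7 without non-activated replicate 2) and 0 to 1 lower. For EIF3D/L (6), no filter on low counts gave 11, genes listed in all 4 libraries gave 1 and leaving out libraries gave 0 to 6 (0 without either activated library). The members called higher and lower in EIF3F/E and EIF3G/E/F stayed at 0 under all alternatives run.

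For UBE2S in EIF3A/C/B, DESeq2 gave 0.97 (adjusted p = 0.527) and distinct reads gave -0.22. In EIF3B/C, TMM gave 0.24 (adjusted p = 0.165), mRNA reads as library sizes 0.11, DESeq2 0.34 (adjusted p = 0.845) and distinct reads -0.048. In EIF3D/L, TMM gave 0.47 (adjusted p = 0.115), mRNA reads as library sizes 0.39 and DESeq2 0.44 (adjusted p = 0.343). In EIF3G/E/F, TMM gave -0.40 (adjusted p = 0.406) and DESeq2 -0.13 (adjusted p = 0.947). Leaving out libraries gave 1.37 to 1.42 in EIF3A/C/B, 0.43 to 0.59 in EIF3B/C, 2.22 to 2.52 in EIF3D/L, -0.080 to 0.96 in EIF3F/E (negative without non-activated replicate 1) and 0.22 to 0.38 in EIF3G/E/F. No call held without either activated library, where adjusted p was at least 0.206.

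Between bands, EIF3B/C minus EIF3A/C/B was -1.57 with no filter on low counts (adjusted p = 0.0626). EIF3D/L minus EIF3A/C/B was 0.30 with TMM, 0.33 with DESeq2 (adjusted p = 0.956) and 0.50 with distinct reads, and EIF3D/L minus EIF3B/C kept its call in every alternative with a test other than the block. Leaving out replicates gave -1.64 to -1.51, -0.21 to -0.02 and 1.30 to 1.62 for the 3, with no test. The interaction of state and band was -0.18 with distinct reads and 0.82 to 0.95 without single libraries (adjusted p = 0.43 and 0.462 without activated replicates 1 and 2).

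With the replicate number as a block, no gene was called in any of the 5 bands or between bands. The members called fell to 0 in the 3 bands with calls, where UBE2S stood at 1.40 (adjusted p = 0.841), 0.51 (adjusted p = 0.478) and 2.36 (adjusted p = 0.218). Between bands the blocked UBE2S values were -1.58 and 1.46. The interaction kept its call at 0.89 (adjusted p = 0.048). Same-numbered libraries of both states correlated at -0.17 to 0.17 in their deviations.

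The UBE2S difference in TPM relative to the median gene was -2.31 when genes with low values were kept in the median. Of 142 alternative values for other named members, 98 kept direction and call, 34 lost the call, 4 moved and 6 changed sign. Those 6 were not called: UBE2D2 in EIF3A/C/B gave -0.25 with TMM, -0.23 with mRNA reads as library sizes, -0.16 with DESeq2 and -0.39 with distinct reads, and in EIF3B/C mRNA reads as library sizes gave -0.13 for UBE2K and -0.070 for UBE2M.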
